A study of Mus musculus with 20 samples.

Results

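The T cell receptor β chain contacts peptide mainly through its complementarity-determining region 3 (CDR3β), the loop encoded where a V, a D and a J segment are joined. Residues 6 and 7 of the loop, counted with the first cysteine as position 1, lie near its middle. Hydrophobic side chains there have been associated with T cells that bind self peptides, which is one reason to follow them in mice whose thymus or peripheral cells carry an altered proteasome. The clones described here are in-frame TCRβ clones of 12 to 16 residues whose residues 6 and 7 were both alanine, phenylalanine, isoleucine, leucine, methionine, valine, tryptophan or tyrosine. They were chosen by sequence alone, and 6713 of 235139 clones of these lengths in 17 mice met the rule, with 5454 distinct amino acid sequences among them. The other 228426 clones of the same lengths served as the reference.

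The libraries came from CD8 T cells (high TCRβ, CD4-CD8+) of male C57BL/6-background mice, 9 to 12 weeks old, sorted to more than 98% purity. WT mice carry both catalytic subunits in question. β5t of the thymoproteasome (gene Psmb11) is found in cortical thymic epithelium. β5i of the immunoproteasome (gene Psmb8) is found in other antigen-presenting cells of the thymus, among them medullary thymic epithelium and haematopoietic cells. β5i-KO mice are deficient in Psmb8 and β5t-KO mice in Psmb11. BIT mice are homozygous for the β5t coding sequence in place of that of β5i, so the β5i locus encodes β5t and β5i is not encoded. Of 5 labelled mice in each group, WT replicate 5, β5t-KO replicate 5 and BIT replicate 3 were not used; their libraries held 1, 10 and 368 clones of these lengths. This left 4 mice each of the WT, β5t-KO and BIT genotypes and 5 of the β5i-KO genotype. The labels give lymph nodes as the tissue and the protocol gives lymph nodes and spleens. TCR libraries measure neither the proteasome genes nor CD8, so genotype and cell type could not be checked against markers.

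Sequencing gave 614169 to 2856711 TCRβ reads per mouse, which came from 8119 to 146469 unique molecules. The libraries differed widely in the number of clones of 12 to 16 residues, from 359 in β5t-KO replicate 2 to 37723 in β5i-KO replicate 3. The number of hydrophobic clones therefore ran from 8 to 1044, and β5t-KO replicate 2 with 8 and WT replicate 1 with 22 gave the least precise values. No pair of libraries within a group was identical, in 28 pairs compared. Fewer T cells of a kind and less receptor RNA per cell cannot be told apart in these bulk libraries.

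The germline segments show where hydrophobic residues can come from without added bases. Both D segments are shown because they differ by a short stretch, with the bases that read as leucine (ctg) or, 1 base further, as tryptophan (tgg) in capitals. V segments are shown from the codon of the first cysteine to their annotated end, with their bases of codon 6 in capitals, for the genes that stood at the ends of the comparison below and for TRBV3, which carries a complete alanine codon at position 6. All were read from GENCODE vM39 on GRCm39, chromosome 6.
TRBD1 (chr6:41510135-41510146, + strand): gggacagggggc
TRBD2 (chr6:41519097-41519110, + strand): gggaCTGGgggggc
TRBV13-2 (chr6:41098751-41098766, + strand): tgtgccagcggtgatG
TRBV13-1 (chr6:41093387-41093402, + strand): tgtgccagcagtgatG
TRBV16 (chr6:41129148-41129164, + strand): tgtgcaagcagcttaGA
TRBV3 (chr6:41025742-41025762, + strand): tgtgccagcagcttaGCCaca
TRBV29 (chr6:41248799-41248815, + strand): tgtgctagcagtttaTC
TRBV17 (chr6:41140474-41140490, + strand): tgtgctagcagtagaGA
In its 3 reading frames TRBD1 encodes glycine with threonine, glutamine, or aspartic acid and arginine, and no hydrophobic residue. TRBD2 encodes leucine in one frame and tryptophan in another.

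The share of clones with hydrophobic positions 6 and 7 was 2.86% ± 0.268 over all mice (SD, n = 17), with a lowest value of 2.23%, a median of 2.91% and a highest of 3.32%. In WT mice it was 2.61%, 3.32%, 2.91% and 2.63% in replicates 1 to 4. In β5i-KO mice it was 2.69%, 2.93%, 2.77%, 2.73% and 2.98% in replicates 1 to 5. The β5i-KO values lay within the WT range. In β5t-KO mice it was 3.14%, 2.23%, 2.64% and 3.23% in replicates 1 to 4, and in BIT mice 3.01%, 2.93%, 3.11% and 2.83% in replicates 1, 2, 4 and 5. The β5t-KO mice spanned the widest range, and their lowest value rested on 8 of 359 clones, with a 95% Wilson interval of 1.13% to 4.33% that covers counting error only.

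All 4 groups overlapped in this share. The mean was lowest in β5t-KO mice (2.81%), followed by β5i-KO (2.82%), WT (2.87%) and BIT mice (2.97%), and none of the 6 pairwise differences passed the test. The largest difference in means, 0.162 percentage points between BIT and β5t-KO mice, had an exact two-sided permutation p of 0.6 (n = 4 and 4; adjusted p = 0.936 over 6 comparisons, 95% interval -0.398 to 0.880). The smallest p was that of BIT against β5i-KO mice, a difference of 0.151 points with exact permutation p = 0.0952 (n = 4 and 5; adjusted p = 0.571, 95% interval -0.0739 to 0.349). BIT against WT differed by 0.102 points, with a 95% interval of -0.489 to 0.501. The smallest p that 4 mice against 4 can give is 0.0286, and the intervals show the size of difference that the present depth and number of mice leave possible.

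Weighting clones by their unique molecules left the groups overlapping. BIT mice had 3.02% ± 0.157 of molecules in hydrophobic clones and WT mice 2.97% ± 0.233 (SD, n = 4 each). The value was 2.86% ± 0.200 for β5i-KO (SD, n = 5) and 2.70% ± 0.711 for β5t-KO mice (SD, n = 4). After adjustment all 6 comparisons had p = 0.8 by the exact permutation test.

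**Figure D1:**
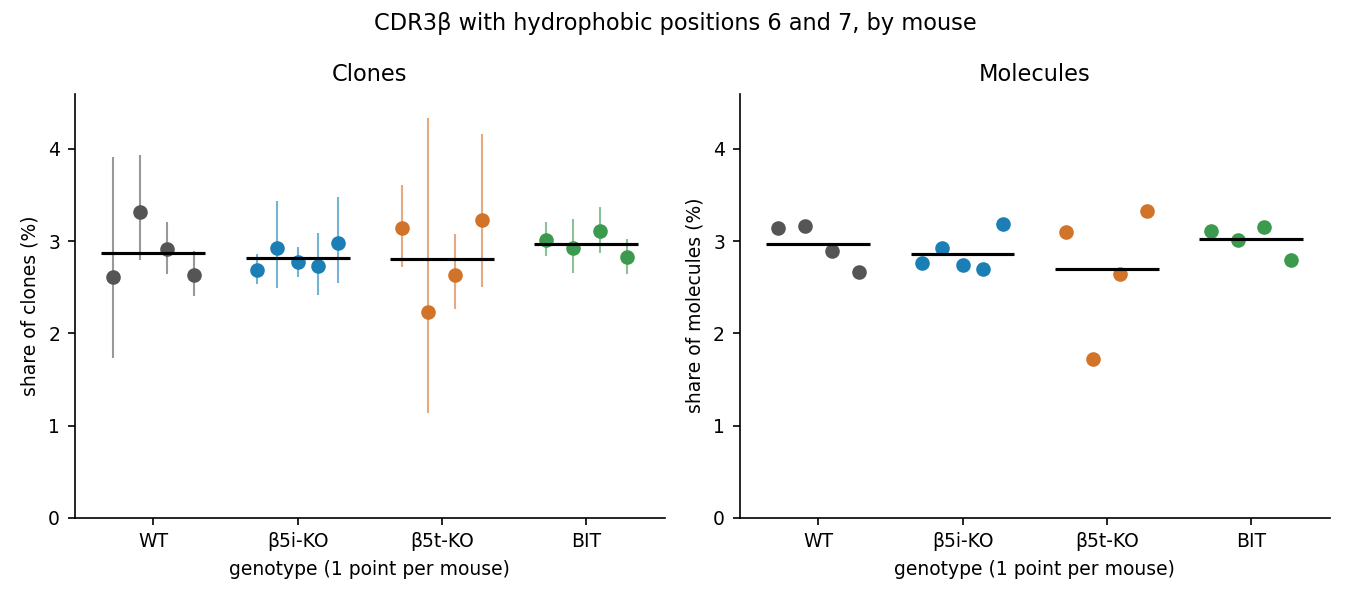
Share of TCRβ clones (left, %) and of unique molecules (right, %) with hydrophobic positions 6 and 7, among clones of 12 to 16 residues, 1 point per mouse in replicate order; black lines are group means and bars on the left are 95% Wilson intervals. The points of all 4 genotypes overlap around 2.86% of clones, and β5t-KO replicate 2 is the lowest point in both panels with the widest interval.

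The size of hydrophobic clones was next set against that of reference clones in the same mouse. The log2 ratio of mean molecules per clone was 0.00 ± 0.125 (SD, n = 17), above 0 in 9 mice and below 0 in 8, with a two-sided sign-flip permutation p of 0.871. The ratio did not differ between genotypes (smallest adjusted exact permutation p = 0.914). The largest departure was -0.38 in β5t-KO replicate 2, on 8 clones. Leaving out pairs that contained alanine gave a mean ratio of -0.14, a median of -0.04 and a permutation p of 0.0507, with 12 of 17 mice below 0. The mean rested on β5t-KO replicate 2, with -1.64 on 4 such clones; without that mouse it was -0.04 (permutation p = 0.105).

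The 8 residues did not contribute equally. Of the hydrophobic clones, 45.1% had alanine at position 6 and 20.8% valine, while at position 7 leucine (29.6%) and tryptophan (25.95%) led, followed by alanine (21.6%). Alanine stood at one or both positions in 57.4% of the clones, and an aromatic residue in 42.8%. All 64 possible pairs occurred, but 8 pairs made up 61.6% of the clones and only 3 pairs were present in all 17 mice, namely alanine-alanine, tyrosine-tryptophan and leucine-leucine.

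The most frequent pair, alanine-leucine, accounted for 15.1% of the hydrophobic clones and 0.403% ± 0.120 of all clones (SD, n = 17; lowest 0, median 0.427%, highest 0.509%). It was absent only from β5t-KO replicate 2. Alanine-tryptophan followed with 0.324% ± 0.106 (lowest 0, median 0.340%, highest 0.468%), absent only from WT replicate 1. Alanine-alanine reached 0.270% ± 0.0923, valine-leucine 0.188% ± 0.0639 and valine-tryptophan 0.156% ± 0.0618 (SD, n = 17 each). Tyrosine-tryptophan had 0.154% ± 0.0742, leucine-leucine 0.145% ± 0.0659 and valine-alanine 0.104% ± 0.0432.

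**Figure D2:**
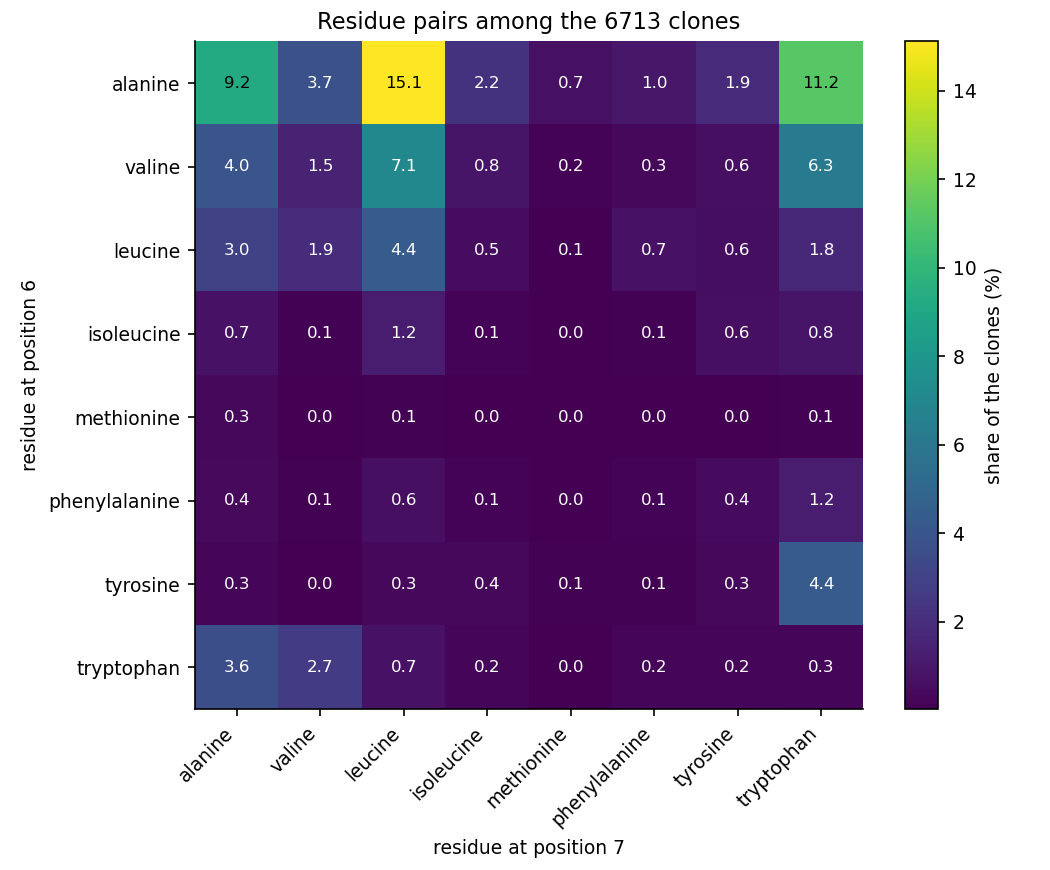
Share of the 6713 hydrophobic clones (%, number in each cell) by the residue at position 6 (rows) and at position 7 (columns), all 17 mice together. The row of alanine and the columns of leucine and tryptophan carry most clones, with 15.1% in the alanine-leucine cell and 11.2% in the alanine-tryptophan cell.

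Hydrophobic residues met at both positions less often than the product of the single shares. Position 6 was hydrophobic in 20.03% ± 0.992 of clones and position 7 in 20.6% ± 1.32 (SD, n = 17). The share with both was 0.696 ± 0.0615 times the product of the single shares, and it ranged from 0.570 to 0.816 over the 17 mice, below 1 in each. Position 7 taken alone was hydrophobic in β5t-KO mice in 22.3% ± 0.752 (range 21.7% to 23.4%, n = 4) against 20.03% ± 0.943 in WT (range 18.96% to 20.98%, n = 4) and 19.5% ± 0.630 in β5i-KO mice (range 18.8% to 20.5%, n = 5). The β5t-KO values did not overlap with those of WT or β5i-KO mice, yet the adjusted exact permutation p was 0.0635 in both comparisons over 6 pairs (unadjusted p = 0.0286 and 0.0159, the smallest these group sizes can give). BIT mice had 20.9% ± 0.762 (n = 4), which was 1.41 points above β5i-KO mice with overlapping values. The adjusted exact permutation p of that difference was also 0.0635 (unadjusted p = 0.03175). The comparisons of single positions were added after the values were seen. At position 6 no pair of genotypes approached the threshold (smallest adjusted p = 0.381).

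Neighbouring windows gave the scale of these shares. Both residues were hydrophobic at positions 5 and 6 in 7.38% ± 0.191 of WT clones, at 6 and 7 in 2.87% ± 0.330, at 7 and 8 in 2.91% ± 0.156 and at 8 and 9 in 4.17% ± 0.117 (SD, n = 4). At positions 7 and 8 β5t-KO mice had 3.42% ± 0.286 (SD, n = 4), above every β5i-KO mouse (2.78% ± 0.165, n = 5) and every BIT mouse (2.83% ± 0.183, n = 4). They overlapped with WT mice, with a lowest β5t-KO value of 3.06% and a highest WT value of 3.08%. None of the 30 window comparisons passed the threshold after adjustment (smallest adjusted exact permutation p = 0.343), and 3 had an unadjusted p under 0.05. The smallest exact permutation p possible was 0.0286 for 4 mice against 4 and 0.0159 for 5 against 4. Over 30 tests a lone difference of any size could therefore not pass, and the adjusted values do not show that the windows are alike.

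The share also differed by loop length, which is given as a description. It went from 2.02% ± 0.711 at 12 residues through 2.28% ± 0.560 at 13, 2.87% ± 0.363 at 14 and 2.96% ± 0.584 at 15 to 4.88% ± 1.27 at 16 residues (SD, n = 17). It was higher at 16 than at 12 residues in 16 of 17 mice. Loops of 16 residues made up 17.4% of hydrophobic clones and 10.2% of reference clones. At 16 residues WT mice had 6.02% on average, the highest of the groups, but none of 30 comparisons of genotypes by length had an exact permutation p under 0.05 (smallest adjusted p = 0.857). With these group sizes a lone difference could not pass after adjustment over 30 tests.

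**Figure D3:**
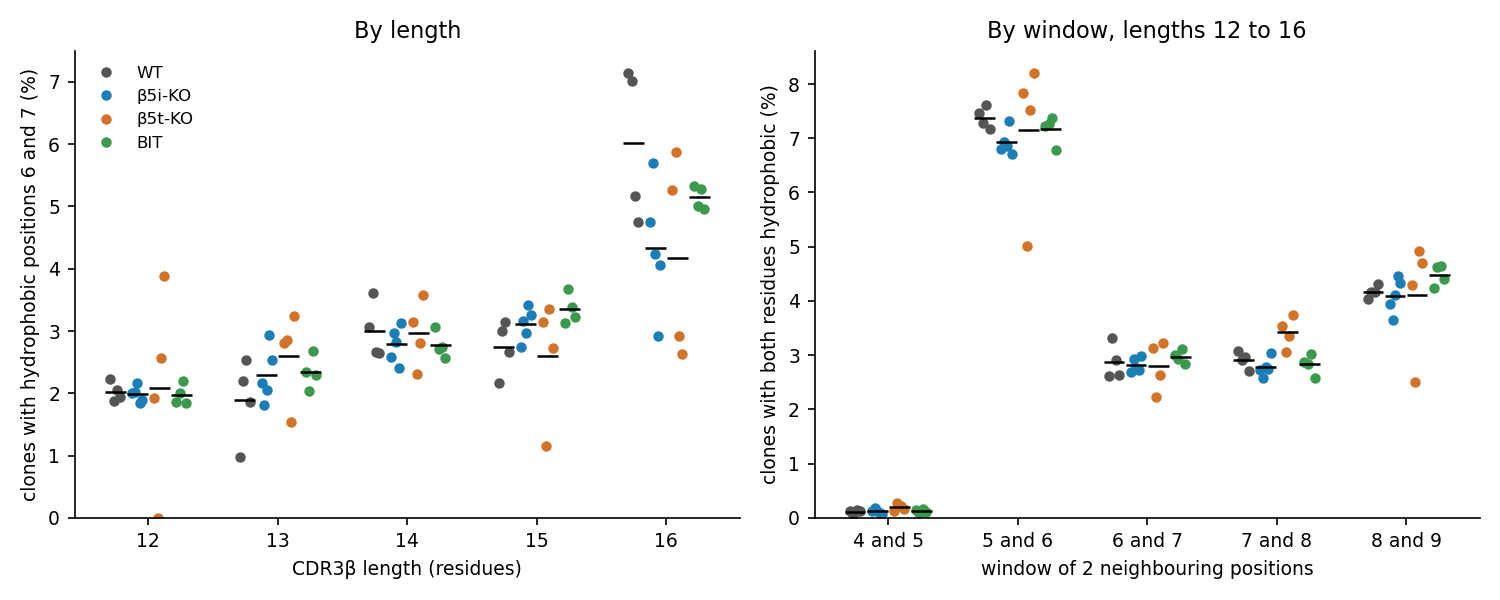
Left, share of clones (%) with hydrophobic positions 6 and 7 by CDR3β length in residues; right, share of clones (%) with both residues hydrophobic in 5 windows of neighbouring positions; 1 point per mouse, coloured by genotype, black lines are group means. The mean in the left panel goes from a mean of 2.02% at 12 residues to 4.88% at 16, and in the right panel the window of positions 6 and 7 lies below those on either side except 7 and 8, which is near it, and 4 and 5, which is close to 0.

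The origin of the codons was read from the V, D and J boundaries of the clone tables; a codon was assigned to a segment when all its bases lay in that segment and to the junction otherwise. These comparisons are descriptions and were not tested. Codon 6 lay in the junction in 77.8% ± 2.09 of hydrophobic clones against 43.3% ± 1.07 of reference clones, and in the D segment in 5.26% ± 2.39 against 47.2% ± 1.25 (SD, n = 17, the same direction in 17 of 17 mice for both). Codon 6 lay in the V segment in 15.9% ± 4.24 of hydrophobic and 7.50% ± 0.809 of reference clones, again in 17 of 17 mice. Of 962 hydrophobic clones with codon 6 in the V segment, 884 had alanine there. Within TRBV13-2, 24.0% of its hydrophobic clones had codon 6 in the V segment as the tables set its boundary, which reaches past the annotated end shown above.

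TRBD2 was the assigned D segment in 52.0% ± 3.25 of hydrophobic clones and 34.0% ± 1.99 of reference clones, and TRBD1 in 10.3% ± 2.35 and 43.9% ± 1.61 (SD, n = 17), each in 17 of 17 mice. Put as rates, 4.30% of 81027 clones with TRBD2 were hydrophobic at both positions, against 0.741% of 100616 with TRBD1 and 4.65% of 53496 with no D segment assigned. Codon 7 shows the same contrast in all clones. Where it lay wholly in TRBD2 it read as tryptophan in 18.75% and as leucine in 14.5% of 66998 clones, and where it lay wholly in TRBD1 as tryptophan in 0.0460% and as leucine in 0.129% of 67327 clones. Among hydrophobic clones with codon 7 in a D segment, 2649 of 2729 had TRBD2, and 52.3% of those carried tryptophan and 45.1% leucine, the residues of the bases in capitals above.

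Use of TRBV genes differed between hydrophobic and reference clones of the same mouse. In 19 of 25 V genes that passed the filter on low counts, edgeR's quasi-likelihood test with mouse as a term called 16 at an adjusted p under 0.05, which is 84.2% of those tested, 3 higher and 13 lower in hydrophobic clones. The rule that chose the clones reads residue 6, whose codon can lie in the V segment, so it fixed part of this outcome. Shares within a class sum to a whole, so a gene that takes a larger part lowers the rest. TMM scaling, which centres the ratios, gave 5 higher and 6 lower, and DESeq2 5 higher and 5 lower.

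TRBV13-2, whose annotated end leaves a g that can open an alanine or valine codon as well as others, supplied 25.0% ± 4.83 of hydrophobic clones and 9.85% ± 0.814 of reference clones (SD, n = 17), and was higher in 17 of 17 mice (log2 ratio 1.28, SE 0.04, edgeR adjusted p = 2.6e-46). Of its clones, 6.66% were hydrophobic at both positions, from 4.50% to 8.57% by mouse. TRBV13-1 had a log2 ratio of 0.81 (SE 0.07, edgeR adjusted p = 2.0e-18, higher in 14 of 17 mice) and TRBV16 of 0.38 (SE 0.04, edgeR adjusted p = 9.0e-15, higher in 15 of 17 mice). TRBV13-3 ends in the same bases as TRBV13-1 but was not called (log2 ratio 0.02, edgeR adjusted p = 0.7465). Its call depended on the setting: it was called higher in 2 of 22 alternatives. When alanine was not counted it was called lower (log2 ratio -0.30, edgeR adjusted p = 0.00223). TRBV19 also has a lone g at codon 6 and was lower (log2 ratio -0.84). TRBV15, with gc there, was lower as well (-0.61), and TRBV3 was not called (-0.005). Whether these ends bear on V gene use was not tested. TRBV29 lay lowest with -1.34 (SE 0.11, edgeR adjusted p = 1.7e-18, higher in 1 of 17 mice), and 1.15% of its clones were hydrophobic. TRBV17 had -1.20, TRBV20 -1.06 and TRBV2 -1.05, each called and each higher in at most 3 of 17 mice. Without alanine as a hydrophobic residue, the ratio of TRBV13-2 was 0.58 and that of TRBV13-1 0.30, while TRBV16 reached 0.67 (all called).

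All 12 TRBJ genes were tested and 11 were called, which is 91.7%, with the same limit that the rule fixed part of the outcome. Each of the 5 that were higher belonged to the J2 cluster, and the 6 that were lower made up the J1 cluster. TRBJ2-3 led with a log2 ratio of 0.38 (SE 0.06, edgeR adjusted p = 7.6e-09), followed by TRBJ2-5 with 0.37 and TRBJ2-4 with 0.31. TRBJ1-5 had -1.06 (SE 0.18, edgeR adjusted p = 1.5e-08), TRBJ1-3 -0.89 and TRBJ1-6 -0.85. TRBJ2-2 was not called (log2 ratio -0.19, edgeR adjusted p = 0.0634), but was called lower when alanine was not counted (log2 ratio -0.40, edgeR adjusted p = 0.0122) and in 6 of 22 alternatives in all. TRBD1 lies before the J1 cluster and can join to either cluster, while TRBD2 lies between the clusters and joins to J2.

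**Figure D4:**
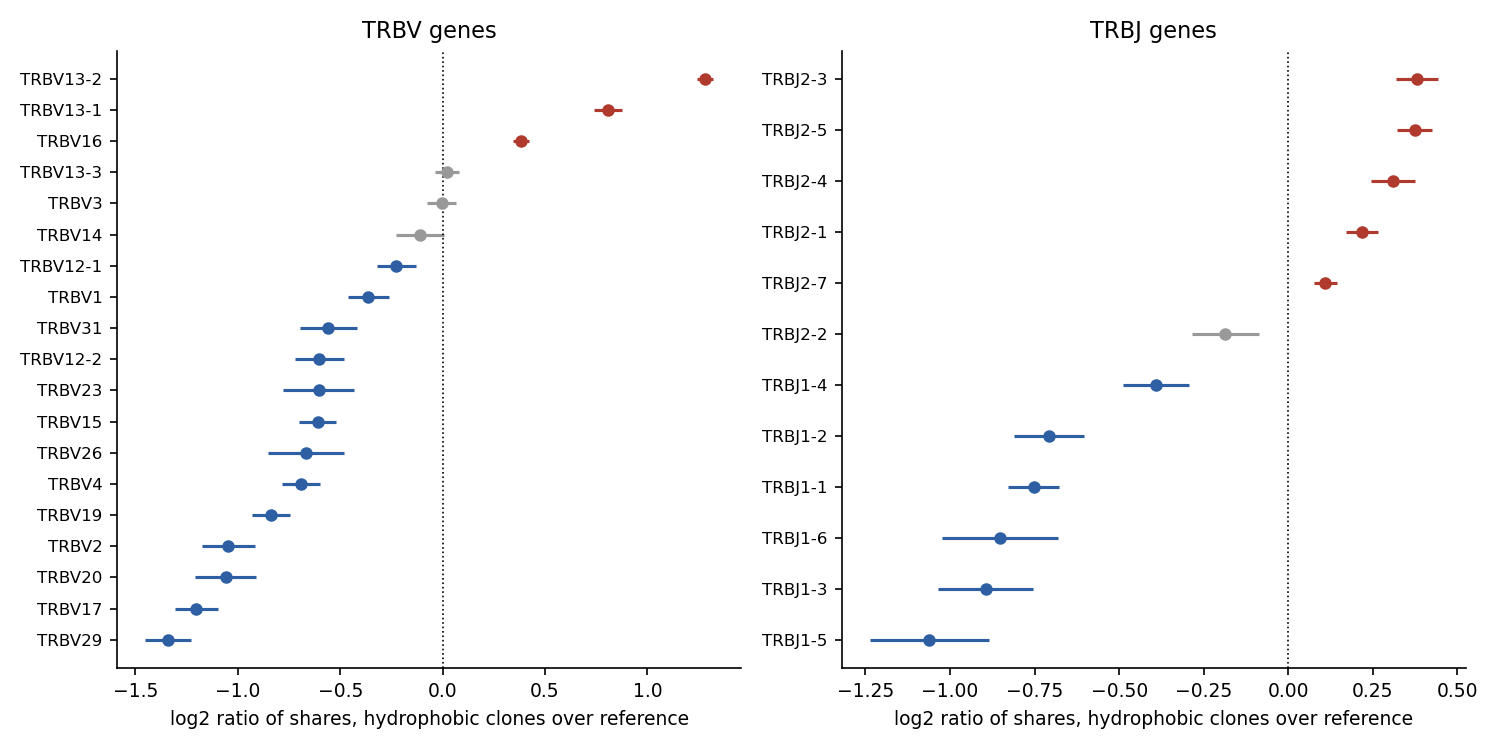
Log2 ratio of the share of hydrophobic clones over the share of reference clones that use each TRBV gene (left) and TRBJ gene (right), from edgeR with mouse as a term over 17 mice; bars are standard errors, red and blue mark genes called higher and lower, grey those not called. TRBV13-2 stands highest at 1.28 and TRBV29 lowest at -1.34, and all called J2 genes lie right of 0 with all J1 genes left of it.

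Out-of-frame rearrangements, which make no receptor and are carried along by a productive second allele, were compared with in-frame clones by reading the codons in the frame of the V segment. Hydrophobic codons 6 and 7 occurred in 2.86% ± 0.268 of in-frame and 3.37% ± 1.90 of out-of-frame rearrangements of like length (SD, n = 17), a difference of -0.51 percentage points with a sign-flip permutation p of 0.296 and a lower in-frame value in 9 of 17 mice. Without WT replicate 1, in which 2 of 25 out-of-frame clones were hydrophobic, the difference was -0.20 (permutation p = 0.589). The out-of-frame value rested on 5317 clones in all, from 20 to 907 per mouse, of which 167 were hydrophobic. The difference depended on alanine. Pairs without alanine were seen in 1.27% ± 0.151 of in-frame and 2.40% ± 1.76 of out-of-frame rearrangements, lower in frame in 14 of 17 mice (permutation p = 0.00374). In the 13 libraries with at least 100 out-of-frame clones they were lower in frame in 12. Pairs with an alanine went the other way, with 1.60% ± 0.233 in frame and 0.967% ± 0.732 out of frame, higher in frame in 13 of 17 mice (permutation p = 0.00272, a split chosen after the values were seen). V gene use moved with this result: once out-of-frame clones were weighted to the V gene mix of in-frame clones, the difference for pairs without alanine was -0.28 percentage points (permutation p = 0.1855).

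Distinct hydrophobic CDR3β sequences were shared between mice less often than reference sequences. In each mouse, 24.7% ± 3.70 of distinct hydrophobic sequences were found in at least 1 other mouse, against 42.2% ± 3.66 of reference sequences (SD, n = 17). The difference of -17.5 percentage points ranged from -32.1 to -12.3 and was negative in 17 of 17 mice (two-sided sign-flip permutation p = 4.0e-05). A shared sequence counts in every mouse that holds it, so the 17 differences are not independent. The p values for sharing given here do not allow for that. Hydrophobic clones also carried more bases assigned to no segment, 3.74 ± 0.397 against 2.93 ± 0.0879 per clone, in 17 of 17 mice. Weighting the reference to the same number of added bases gave a difference of -12.6 points, and weighting it to the same D segment, added bases and length one of -13.5 points, both negative in 17 of 17 mice (permutation p = 4.0e-05 each). No pair of genotypes differed in this contrast after adjustment (smallest adjusted exact permutation p = 0.137 over 12 tests, which include the in-frame contrast). The unadjusted exact permutation p was 0.0286 for BIT against WT and for BIT against β5t-KO mice, the smallest that 4 against 4 can give. It was 0.0397 for β5t-KO against β5i-KO mice and at least 0.171 for the other pairs. Over all mice, 11% of distinct hydrophobic sequences and 17.6% of reference sequences occurred in at least 2 mice. No hydrophobic sequence was found in more than 11 mice, while a reference sequence was found in 16.

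**Figure D5:**
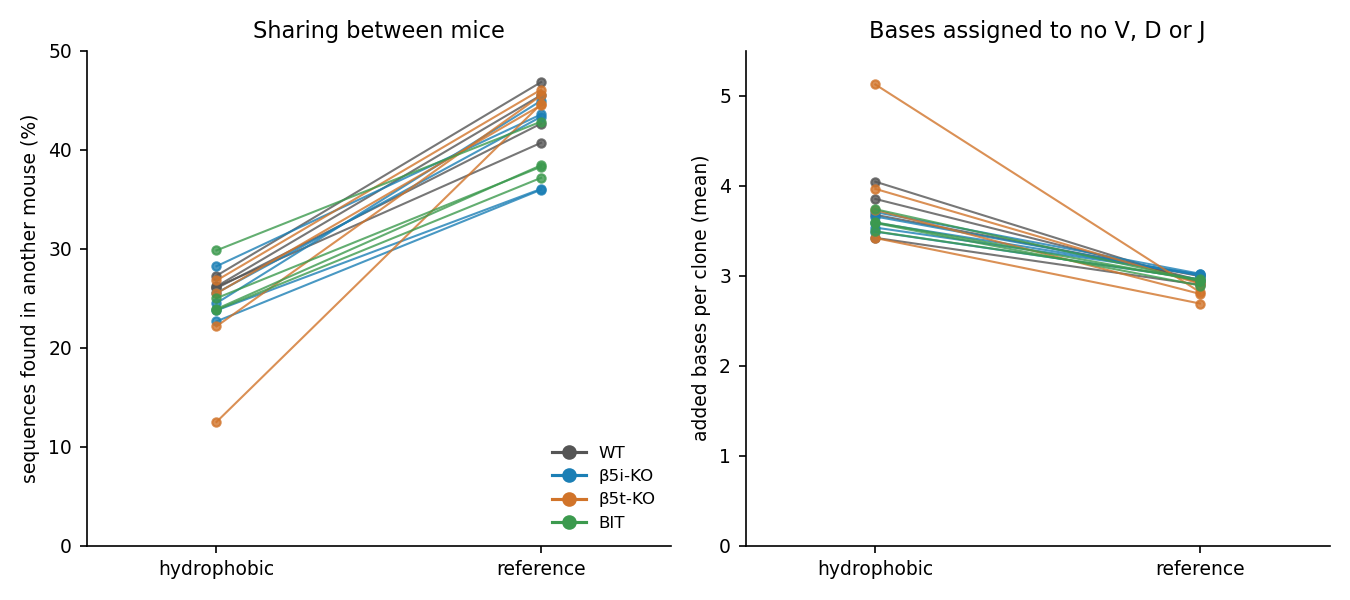
Left, share of distinct CDR3β sequences of each mouse that were also found in at least 1 other of the 17 mice (%); right, mean number of bases per clone assigned to no V, D or J segment; each line joins the hydrophobic and the reference clones of 1 mouse, coloured by genotype. All 17 lines rise on the left and all 17 fall on the right, where the steepest line is β5t-KO replicate 2 with 8 hydrophobic clones.

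The 6 sequences found in the most mice are printed to show which codons gave the pairs. For each, the nucleotide sequence with the most molecules is given, with codons 6 and 7 in capitals.
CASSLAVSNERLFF: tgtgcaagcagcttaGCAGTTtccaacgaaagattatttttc
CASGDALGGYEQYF: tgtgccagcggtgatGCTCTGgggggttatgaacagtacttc
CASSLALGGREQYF: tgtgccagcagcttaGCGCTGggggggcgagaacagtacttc
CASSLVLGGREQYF: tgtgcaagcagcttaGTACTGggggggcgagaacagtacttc
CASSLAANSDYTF: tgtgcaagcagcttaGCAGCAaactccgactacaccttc
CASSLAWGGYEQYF: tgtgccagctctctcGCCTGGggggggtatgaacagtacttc
In 4 of these 6 codon 7 reads ctg or tgg before a run of g, as TRBD2 does. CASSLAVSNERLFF, mostly TRBV16 with TRBJ1-4, was found in 11 mice, the most of any hydrophobic sequence, through 8 nucleotide sequences. Its unique molecules numbered 0, 4, 6 and 3 in WT replicates 1 to 4, and 1, 12, 6, 2 and 0 in β5i-KO replicates 1 to 5. It numbered 6, 3, 5 and 7 in BIT replicates 1, 2, 4 and 5, and was not seen in any of the 4 β5t-KO mice, whose libraries held 359 to 6029 clones of these lengths against 12598 to 32799 in BIT mice. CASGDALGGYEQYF, TRBV13-2 with TRBJ2-7 in every clone, was found in 10 mice through 11 nucleotide sequences, with 97 molecules in all. It was seen in 4 of 4 BIT mice, 3 of 5 β5i-KO mice, 2 of 4 WT mice and, with 21 molecules, 1 of 4 β5t-KO mice. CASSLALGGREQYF and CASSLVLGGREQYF, which share all but 1 residue, were each found in 9 mice, and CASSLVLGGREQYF had 16 nucleotide sequences. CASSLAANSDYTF and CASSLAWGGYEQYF followed with 8 mice each. Next came a TRBV13-2 sequence of 15 residues with TRBJ2-1 in 7 mice, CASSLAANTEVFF and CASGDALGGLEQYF in 7 mice each, and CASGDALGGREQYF in 6 mice. Of the 10 sequences, 9 had alanine at position 6.

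Residue pairs were also compared between genotypes one by one, with each clone counted once and all groups in 1 edgeR fit. Of 378 pairs of any residues seen at positions 6 and 7, 153 passed the filter on low counts, among them 11 of the 64 hydrophobic pairs. No hydrophobic pair was called in any of the 6 comparisons. Over all pairs tested the called share was 0% for β5i-KO against WT, 5.88% for β5t-KO against WT, 0% for BIT against WT, 2.61% for BIT against β5i-KO, 3.92% for BIT against β5t-KO and 9.15% for β5t-KO against β5i-KO. At an unadjusted p under 0.05 the hydrophobic pairs numbered 0, 0, 0, 1, 1 and 2 of 11 in the same order (0%, 0%, 0%, 9.09%, 9.09% and 18.2%). Over all 153 pairs the share at that threshold was 7.19%, 13.7%, 6.54%, 11.1%, 13.7% and 20.3%. DESeq2 called 0 of the hydrophobic pairs in each comparison. Leucine-alanine (LA) was called for β5t-KO against WT when WT replicate 3 was left out (log2 ratio 1.65, edgeR adjusted p = 0.0387), against a log2 ratio of 0.71 and an adjusted p of 0.496 with that mouse. Without that mouse 12 of all 153 pairs (7.84%) and 1 of the 11 hydrophobic pairs (9.09%) were called. With all mice the smallest edgeR adjusted p of a hydrophobic pair was 0.164, for alanine-tryptophan (AW in one-letter code) in β5t-KO against β5i-KO mice. Its log2 ratio was 0.52 (SE 0.23), and it made up 0.368% against 0.330% of clones as means over mice. Values by mouse overlapped, from 0.279% to 0.455% in β5t-KO and from 0.248% to 0.468% in β5i-KO mice. The fit works on clone counts, so large libraries weigh more there than in plain means.

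Abundance of single sequences was compared on read counts of recurring CDR3β, sequences that reached 10 CPM, a count scaled to the library's reads, in 3 or more mice of 1 group. Of 3497 recurring sequences 44 were hydrophobic. With library-size scaling and all groups in the fit, edgeR called 0% of the 3497 and 0 of the 44 in each of the 6 comparisons, although 11 to 29 of the 44 had an unadjusted p under 0.05, as had 14.7% to 53.6% of all. These counts depended on the fit. With TMM scaling edgeR called 28 of the 44 (63.6%) and 54.5% of all for BIT against β5t-KO, and 30 of the 44 (68.2%) and 54.8% of all for β5t-KO against β5i-KO, with 0 in the other 4 comparisons. With only the 2 groups in the fit it called 19 of the 44 and 41.8% of all for BIT against β5t-KO and 0 in the other 5. DESeq2 called 10, 14 and 6 of the 44 for β5i-KO, β5t-KO and BIT against WT, where it called 15.4%, 37.0% and 14.9% of all. It called 3 for BIT against β5i-KO, 19 for BIT against β5t-KO and 21 for β5t-KO against β5i-KO, beside 4.52%, 41.0% and 45.1% of all. A sequence entered these fits through the group in which it was high, so neither the counts nor their direction are read as a difference between genotypes. Of the 44, 19 to 29 were found in each BIT mouse, 9 to 32 in each β5i-KO mouse, 0 to 15 in each WT mouse and 0 to 6 in each β5t-KO mouse. As shares of the 44 these were 43.2% to 65.9%, 20.45% to 72.7%, 0% to 34.1% and 0% to 13.6%. All 3497 recurring sequences ran the same way, with 50.2% to 76.4%, 24.2% to 76.1%, 3.83% to 42.1% and 1.60% to 21.8% found per mouse. The libraries of these groups held 12598 to 32799, 4918 to 37723, 844 to 16481 and 359 to 6029 clones of these lengths, and the part of depth was not tested.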

How the data were processed

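CD8 T cell RNA was made into TCR libraries with a kit that tags molecules, and the authors assembled clones with MiXCR (version and settings not given in the sources used here). The deposited TCRβ tables give whole-number read counts and unique molecule counts per clone, not normalised; TCRα tables were not used. The submitters' processing notes name mm10, and the tables hold no coordinates.

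Clones were classed by residues 6 and 7, and a clone that listed several V genes took the first. The members and lists were chosen with earlier results of these data known. Genotypes were compared by exact two-sided permutation tests of mean differences with Benjamini-Hochberg adjustment over 6 pairs. Classes within mice were compared by sign-flip permutation (100000 draws). Gene, pair and sequence counts were tested with edgeR 4.0.16 (R 4.3.3; quasi-likelihood, library-size scaling, adjusted p under 0.05); DESeq2 1.42.0 was an alternative. Other values used Python 3.11.15, NumPy 2.4.6, pandas 2.3.3, SciPy 1.17.1 and Matplotlib 3.10.9. Scripts were tested on simulated data.

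The text names the 8 most frequent hydrophobic pairs, called V genes (up to 4 higher and 4 lower) and J genes (up to 3 each way) with at least 1% of clones by size of change, and the 10 hydrophobic sequences found in the most mice. TRBJ2-2, TRBV3, TRBV13-3, TRBV15, TRBV19 and the pair with the smallest p were named besides. Replicates are separate mice per the labels. Replicate numbers were checked by the correlation of V gene use with the group means removed. Every same-number pair exceeded 0.1 for β5t-KO against WT (4 pairs, 0.175 to 0.826) and for β5t-KO against β5i-KO (4 pairs, 0.316 to 0.820). Numbers were therefore taken as pairing those groups, and not for the other 4 comparisons. This is an assumption, because the sample titles give numbers and state no pairing. The cut of 0.1 was applied to these same data. Pairing β5t-KO mice with both groups would also pair WT with β5i-KO mice, which the cut did not. The main tests between genotypes were unpaired, and pairing entered only through the replicate block. Same-number pairs of WT and β5i-KO mice ran from -0.0901 to 0.918. Some pairs of unlike number were higher, as WT replicate 3 with β5t-KO replicate 1 (0.744, against 0.417 with β5t-KO replicate 3). The median was 0.409 over same-number pairs and -0.219 over the others.

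Wilson intervals cover counting error only; intervals of differences between genotypes come from inverting the permutation test over mice. Alternatives were distinct amino acid sequences, a minimum of 2 molecules, thinning to 8119 molecules, reads for molecules, the 10 largest clones left out, alanine not counted, 13 to 15 residues, weighting to the V gene and length mix, TMM, no filter, only the groups compared, the replicate block, BIT replicate 3 included, and each mouse left out.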

Additional observations from a re-analysis of the deposited data

Results flagged for a closer look

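Values that stood apart from the rest of their group were sought in 14 measures by genotype, 56 groups of 4 or 5 mice, where chance alone flags about 1 group in 20. The 3 values found all came from β5t-KO replicate 2, the library with 8 hydrophobic clones. Its log2 ratio of clone size was -0.38, against -0.02 to 0.05 in the other β5t-KO mice. Its share of alanine-alanine clones was 0.557%, against 0.183% to 0.226%. Its share of valine-leucine clones was 0%, against 0.149% to 0.170%, and the library held 359 clones of these lengths in all.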

How the results depend on the processing

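None of the differences between genotypes in the share of clones, the share of molecules or clone size passed the threshold under any alternative run. The lowest adjusted exact permutation p was 0.343, 0.343 and 0.257 in turn. Once 1 mouse was left out of β5t-KO against WT, BIT against WT or BIT against β5t-KO, the smallest possible exact permutation p was 0.0571. Those runs could not pass whatever the difference, so they say nothing about stability. The V and J genes named as higher or lower kept direction and call, except TRBV15, which did so in 20 of 22 alternatives. TRBJ2-2, not called, was called in 6 of 22 alternatives. TRBV13-3, not called, was called higher in 2 of 22 alternatives and lower when alanine was not counted. Where a sign or a count moved, the values follow, and the cause was not tested. For the share of clones (percentage points), leaving alanine out gave -0.03348 for BIT against WT, -0.07667 for BIT against β5t-KO, 0.04319 for β5t-KO against WT and 0.1479 for β5t-KO against β5i-KO. Lengths of 13 to 15 residues gave 0.1366 for β5i-KO against WT and 0.1216 for β5t-KO against WT, thinning gave 0.09768 and 0.02243 for the same comparisons, and distinct sequences gave 0.009718 for the former. Clones of at least 2 molecules gave 0.0774 for β5t-KO against β5i-KO, and BIT replicate 3 included gave -0.002768 for BIT against WT. Leaving out 1 mouse at a time gave -0.03071 to 0.3018 for BIT against β5t-KO, -0.1354 to 0.1014 for β5i-KO against WT, -0.1998 to 0.1327 for β5t-KO against WT and -0.1513 to 0.1812 for β5t-KO against β5i-KO.

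For the share of molecules, BIT against WT was -0.01061 without the 10 largest clones, -0.09356 weighted to the V gene and length mix and -0.3385 with BIT replicate 3, which also gave -0.2326 against β5i-KO and -0.06874 against β5t-KO. Reads in place of molecules gave 0.04393 for β5i-KO against WT. Leaving out 1 mouse gave -0.04862 to 0.1242 for BIT against WT, -0.005172 to 0.5317 for BIT against β5t-KO, -0.4806 to 0.0563 for β5t-KO against WT and -0.3747 to 0.1622 for β5t-KO against β5i-KO. Clone size of hydrophobic against reference clones (log2) was -0.02052 in reads and -0.01336 to 0.0279 without 1 mouse. Without alanine it was -0.1367, and then -0.04302 without β5t-KO replicate 2 and -0.1542 to -0.1304 without any other mouse (permutation p 0.0140 to 0.105, chosen after seeing the data). Between genotypes it was in reads 0.04465 for BIT against WT, -0.001147 for BIT against β5i-KO and 0.0458 for β5i-KO against WT, and without 1 mouse -0.07289 to 0.04402, -0.006992 to 0.02322 and -0.07601 to 0.04091. Position 6 without 1 mouse ranged from -0.1363 to 0.5257 for BIT against WT and from -0.8522 to 0.4245 for β5t-KO against β5i-KO. The in-frame difference was -1.137 without alanine (permutation p = 0.00374) and then -0.2783 weighted to the V gene mix (permutation p = 0.1855).

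DESeq2 called 10 V genes. Of all residue pairs DESeq2 called 2 for β5t-KO against WT, 0 for BIT against β5i-KO, 1 for BIT against β5t-KO and 6 for β5t-KO against β5i-KO. TMM called 1 for β5i-KO against WT and 0 for BIT against β5i-KO, fits of only the 2 groups called 2 in each of these, distinct sequences 0 for BIT against β5i-KO and 8 for β5t-KO against β5i-KO, and no filter 1 for BIT against β5i-KO. Without 1 mouse the calls ranged from 0 to 1 for BIT against WT, 0 to 6 for BIT against β5i-KO, 1 to 8 for BIT against β5t-KO, 0 to 1 for β5i-KO against WT, 3 to 12 for β5t-KO against WT and 5 to 13 for β5t-KO against β5i-KO. Of the recurring CDR3β, DESeq2 called 537 for β5i-KO against WT, 1295 for β5t-KO against WT, 522 for BIT against WT, 158 for BIT against β5i-KO, 1435 for BIT against β5t-KO and 1578 for β5t-KO against β5i-KO, TMM 1904 and 1915 for the last 2 and fits of only the 2 groups 1460 for BIT against β5t-KO.

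Where numbers were taken as pairing the mice (β5t-KO against WT and against β5i-KO), the replicate block called 0 hydrophobic pairs, as did the fit without it. For shares 4 pairs cannot give a two-sided p under 0.125, so the block says nothing about their stability, and it gave a share of clones 0.02778 points apart for β5t-KO against β5i-KO. For BIT against β5i-KO, where numbers were not taken as pairing, the block gave 2 pairs and a clone size difference of -0.005964. Over 22 pairs of mice of the same number the correlation was above 0.1 in 17. Depth limits β5t-KO replicate 2 and WT replicate 1 most, with 8 and 22 hydrophobic clones.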

Other observations

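BIT replicate 3, which entered the comparisons above only as an alternative, held 368 clones of 12 to 16 residues. Hydrophobic positions 6 and 7 were found in 9 of them, a share of 2.45% with a 95% Wilson interval of 1.29% to 4.58%, and in 1.07% of molecules. β5t-KO replicate 5 held 1 such clone among 10.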
